A study of Sus scrofa with 30 samples.

Results

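Cerebral cortex of pigs given methylene blue was compared with cortex of pigs given saline 60 min after the circulation had returned. The comparison took the 3 arrays labelled with methylene blue at 60 min (MB60) and the 3 labelled with saline at 60 min (SAL60), 6 of the 30 arrays of the series. Young pigs of both sexes, a Swedish triple breed of 12 to 14 weeks under pentobarbital, had their hearts stopped by electrically induced ventricular fibrillation. In both groups the arrest lasted 12 min and chest compressions then 8 min. MB60 animals received methylene blue at 7.5 mg/kg/h in saline at 55 mL/kg/h, and SAL60 animals received that volume of saline alone. Infusion began 1 min into resuscitation and ended 50 min after the circulation returned, so the cortex was taken 10 min after it stopped. The arms were also sampled at 30 min (MB30, SAL30) and at 180 min (MB180, SAL180), and in CA0 the brain was removed directly after the arrest began (0 min). CA5, CA20 and CA30 had 5, 20 and 30 min of untreated arrest. Together with CA0 they are the 12 arrays of untreated arrest. Each group held 3 animals per the labels, and the number of arrays limits the precision of every value.

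Methylene blue is a redox dye that accepts and donates electrons and inhibits nitric oxide synthase and the soluble guanylate cyclase that nitric oxide activates. When blood returns to the brain after an arrest, reactive oxygen and nitrogen species form, neurons fire and depolarize, and cells switch on immediate early genes, heat shock proteins and oxidative stress defences. The genes used as markers of this comparison have other roles. NDRG2 is a cytoplasmic protein of the N-myc downstream regulated family that is enriched in astrocytes, and PFDN6 is a subunit of prefoldin, which hands unfolded actin and tubulin to the chaperonin TRiC.

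Of 16799 probe sets tested with limma on log2(intensity + 16), 256 passed at an adjusted p of 0.05 in MB60 against SAL60, which is 1.52% of them. Of these, 122 were higher in MB60 (0.726%) and 134 were lower (0.798%). A single gene symbol was attached to 59 of the higher and 48 of the lower probe sets, which stood for 104 genes. Differences of more than 1 on the log2 scale were found for 76 of the higher and 27 of the lower. The median difference of all probe sets tested was 0.01. The count depended on single arrays: it was 27 without SAL60 replicate 2, 54 without MB60 replicate 2, 103 without SAL60 replicate 1 and 111 without MB60 replicate 3.

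The control transcripts on the arrays were compared as well. Bacterial poly-A transcripts, which are spiked into the RNA before labelling, had a mean log2 signal of 6.30, 6.51 and 6.33 in MB60, against 7.11, 6.73 and 7.28 in SAL60. All 3 MB60 arrays lay below all 3 SAL60 arrays, a difference of -0.66 (exact permutation test, two-sided p = 0.1, the smallest that 3 against 3 can give). The 3' probe set of the dap spike read 321, 428 and 461 units in MB60 and 872, 936 and 1013 units in SAL60. The difference in poly-A signal was -0.89 at 30 min (exact p = 0.1) and -0.42 at 180 min, where the arms overlapped (exact p = 0.2). Over the series, the 9 methylene blue arrays lay between 6.06 and 6.51 and the other 21 arrays between 6.36 and 7.47.

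The log2 3'/5' signal ratio of 5 pairs of actin and GAPDH probe sets, a sign of RNA integrity and of labelling length, was 1.09, 0.56 and 1.40 in MB60 and 1.35, 2.28 and 1.06 in SAL60. These groups overlapped, with a difference of -0.55 (exact permutation test, two-sided p = 0.5). At 30 min the difference was -0.34, without overlap (exact p = 0.1), and at 180 min -0.59, with overlap (exact p = 0.2). Over the series, the ratio lay between 0.56 and 1.42 on the 9 methylene blue arrays and between 1.05 and 2.56 on the other 21. The mean ratio was thus lower with methylene blue at each time. MB60 replicate 2 had the lowest ratio of its group, and SAL60 replicate 2 the highest of its own. With both left out, which keeps 2 arrays against 2 of like ratio (1.09 and 1.40 in MB60, 1.35 and 1.06 in SAL60), 11 probe sets passed, all of them among the 256. On those arrays all 122 higher probe sets were still positive, with a median log2 difference of 0.91 against 1.10 on all 6 arrays. All 134 lower ones were still negative, with a median of -0.65 against -0.77. These arrays are among the 6 that picked the probe sets, so kept signs and sizes are no separate check. With the ratio as a covariate 60 passed, and with the poly-A signal as a covariate 797 passed. Hybridization controls, added after labelling, read 10.25, 10.48 and 11.11 in MB60 and 10.54, 10.94 and 10.28 in SAL60 (difference 0.03, exact p = 1). The part of the labelling in the differences between genes was not tested, and since no processing batch is given, batch and arm cannot be told apart.

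**Figure D1:**
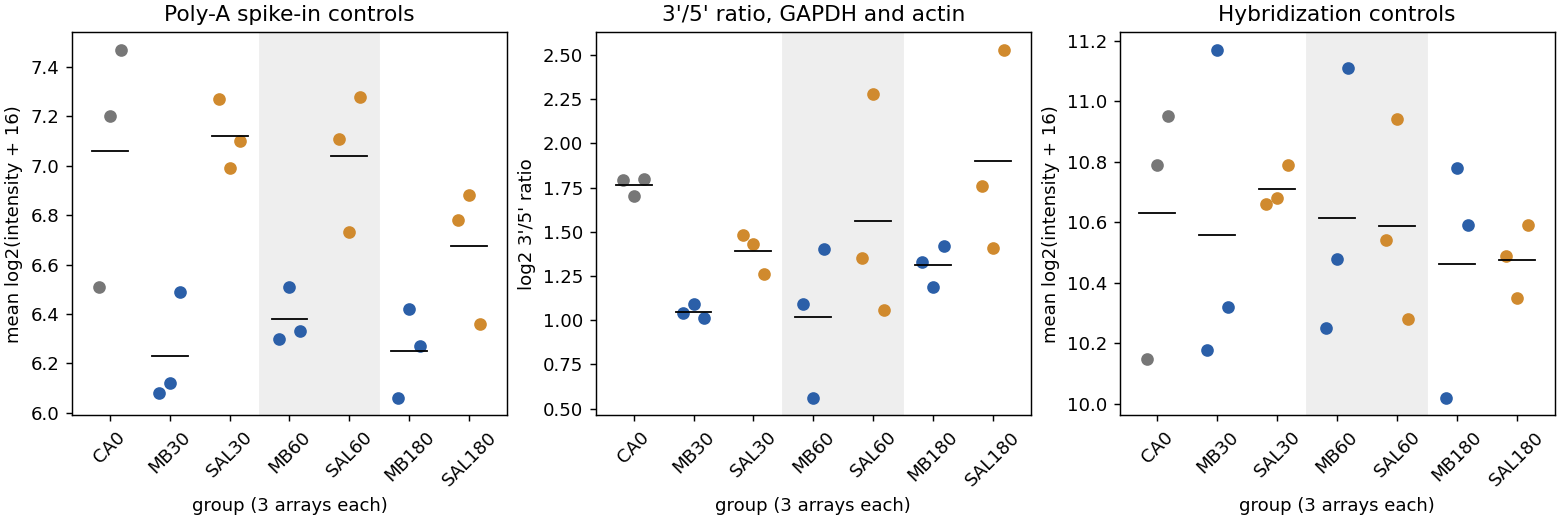
Control measures by array for CA0 (grey), methylene blue (blue) and saline (orange) at 30, 60 and 180 min after return of circulation, with group means as bars and the 60 min groups shaded. The y axes give the mean log2(intensity + 16) of the poly-A controls, the log2 3'/5' ratio, and the mean log2(intensity + 16) of the hybridization controls. The MB60 arrays sit between 6.30 and 6.51 for poly-A, all below the SAL60 arrays.

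NDRG2 and PFDN6 gave the smallest p-values among genes with a symbol, each on its only probe set tested. NDRG2 read 3047, 3969 and 3362 units in MB60, against 909, 856 and 1095 units in SAL60, and averaged 1083 in CA0. Every MB60 array was above every SAL60 array, and SAL60 stood near CA0. The log2 difference was 1.84 ± 0.17 (SE, n = 3 per group, limma adjusted p = 3.29e-07), or 3.58-fold on this scale.

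PFDN6 read 582, 578 and 517 units in MB60, against 213, 216 and 168 units in SAL60, and averaged 204 in CA0. Its groups did not overlap either. The log2 difference was 1.43 ± 0.13 (SE, limma adjusted p = 3.29e-07), a 2.69-fold higher level in MB60.

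PSMD4 and PIP5K1A followed them. PSMD4, a ubiquitin receptor of the proteasome's regulatory particle, read 1223, 1363 and 1114 units in MB60 and 305, 235 and 400 units in SAL60. Its log2 difference was 1.95 ± 0.20 (SE, limma adjusted p = 3.93e-06). PIP5K1A, a kinase that makes the membrane lipid phosphatidylinositol 4,5-bisphosphate, read 395, 376 and 348 units in MB60 and 86.2, 51.4 and 127 units in SAL60. All MB60 arrays were above all SAL60 arrays for both genes. PIP5K1A differed by 1.96 ± 0.24 on the log2 scale (limma adjusted p = 3.51e-05). A further, dim PIP5K1A probe set averaged 30.7 units in MB60 and 28 in SAL60, 0.07 apart on the log2 scale (limma adjusted p = 0.917). In the reference gene table PSMD4 and PIP5K1A are direct neighbours, with 0 genes between them.

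None of these 4 genes passed in SAL60 against CA0, where the log2 differences were -0.18 for NDRG2, -0.04 for PFDN6, -0.20 for PSMD4 and -0.14 for PIP5K1A. Their separation held over the whole series. NDRG2 lay between 2587 and 3969 units on the 9 methylene blue arrays, between 856 and 1735 on the 9 saline arrays and between 764 and 1232 on the 12 arrays of untreated arrest. PFDN6 lay between 517 and 638 units with methylene blue, between 168 and 240 with saline and between 180 and 264 in untreated arrest. For both genes the lowest methylene blue array was above the highest array of any other group. PSMD4 ranged from 1056 to 1363 units with methylene blue, from 235 to 441 with saline and from 210 to 440 in untreated arrest. PIP5K1A ranged from 302 to 524 units with methylene blue, from 51.4 to 141 with saline and from 64 to 121 in untreated arrest.

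The 4 genes also kept their calls under each of the 19 other settings of the analysis. Those settings reuse arrays on which these genes had the smallest p-values, so the kept calls are no separate check. With the arrays of like 3'/5' ratio, the log2 difference was 1.67 ± 0.20 for NDRG2 and 1.46 ± 0.16 for PFDN6 (SE, n = 2 per group, limma adjusted p = 0.000235 and 7.18e-05). It was 1.69 ± 0.24 for PSMD4 and 1.68 ± 0.27 for PIP5K1A on those arrays (limma adjusted p = 0.00169 and 0.0046). Over all probe sets, 7 were called in every setting, all of them higher in MB60, and the other 3 carry no gene symbol. One of these, chosen after its values were seen, read 1403, 1367 and 1112 units in MB60 and 564, 531 and 612 units in SAL60. Another read 332, 370 and 307 units in MB60 and 97.2, 91.8 and 91.7 units in SAL60.

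**Figure D2:**
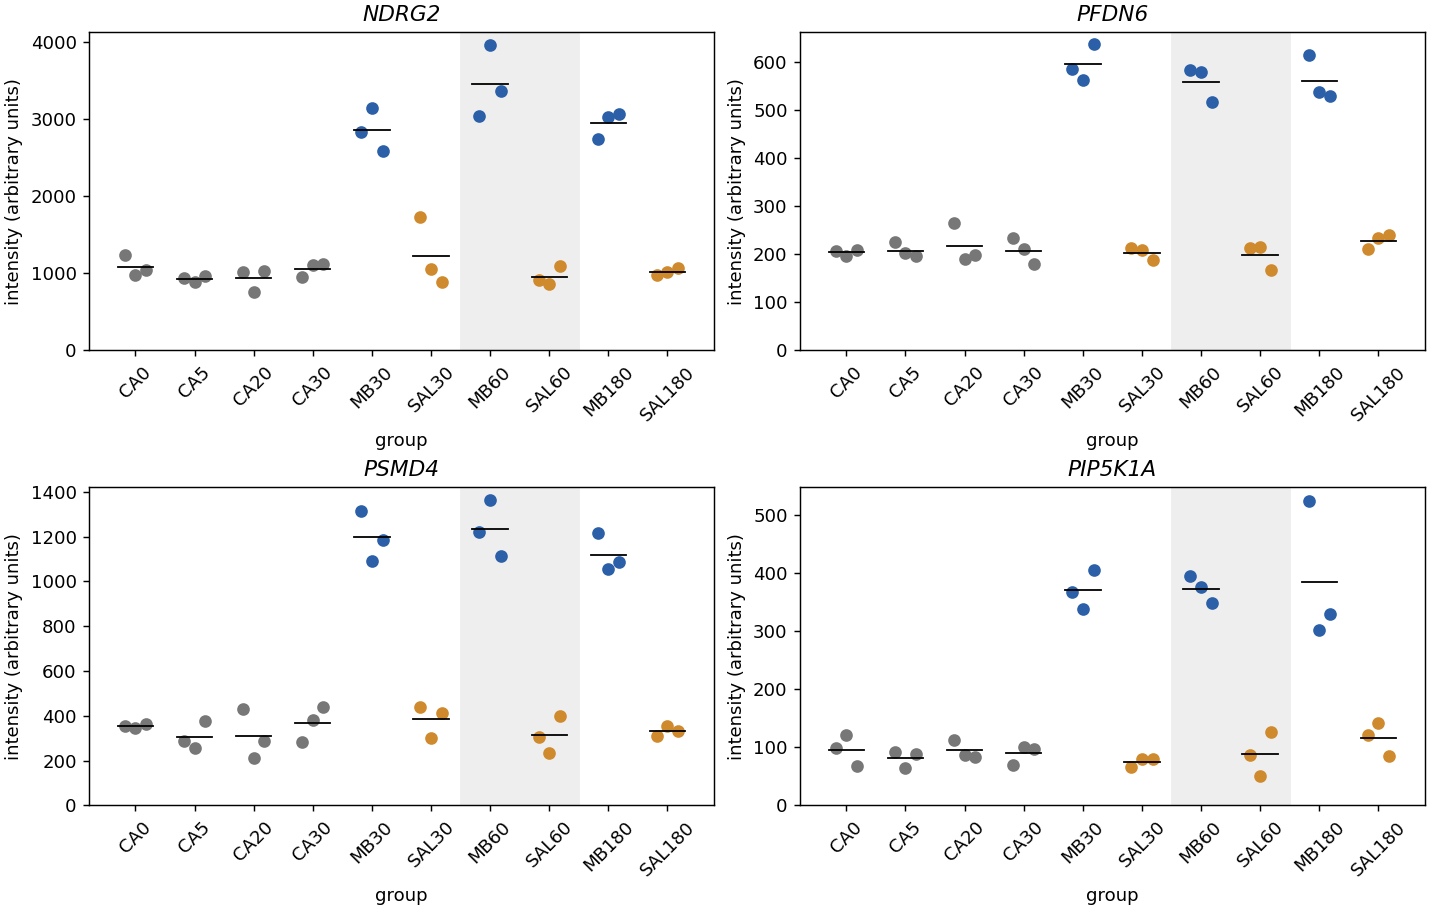
Intensity in arbitrary units (y axis, from 0) of NDRG2, PFDN6, PSMD4 and PIP5K1A on every array of the 10 groups (x axis), with group means as bars. Methylene blue arrays are blue, saline arrays orange and untreated arrest grey, and the 60 min groups are shaded. In each panel all 9 methylene blue arrays lie above the other 21 arrays.

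The 10 largest differences upward held 6 further genes. DZANK1, a zinc ribbon and ankyrin repeat protein, read 1001, 2506 and 1295 units in MB60 and 355, 175 and 660 units in SAL60. Its log2 difference of 2.05 ± 0.53 was the largest among called probe sets with 1 gene symbol, and its adjusted p of 0.0483 (limma) lay close to the threshold; its other, brighter probe set gave 1.15 and did not pass. PICALM, a clathrin assembly protein, averaged 788 ± 281 units in MB60 and 251 ± 97.3 in SAL60 (SD, n = 3 each), a log2 difference of 1.60 ± 0.38 (SE, limma adjusted p = 0.0335). Its other probe sets gave -0.37 and 0.75, and neither passed. GMFB, glia maturation factor beta, read 235, 376 and 217 units in MB60 and 95.4, 47.6 and 125 units in SAL60 (log2 difference 1.51).

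VGLL4, a cofactor of TEAD transcription factors, read 120, 171 and 165 units in MB60 and 39.4, 39.7 and 38.3 units in SAL60 (log2 difference 1.59). Its other, brighter probe set averaged 496 units in MB60 and 461 in SAL60 (0.12) and did not pass. On the called probe set SAL60 read below CA0, which averaged 90.9 units, although that log2 difference of -0.90 did not pass (limma adjusted p = 0.699). IMPA1, an inositol monophosphatase, averaged 187 units in MB60 and 63.8 in SAL60 (log2 difference 1.41, with 0.35 on its other, brighter probe set). TIMP3, an inhibitor of matrix metalloproteinases, was called on both of its probe sets, with log2 differences of 1.39 ± 0.27 and 1.32 ± 0.26 (SE, limma adjusted p = 0.0109 for each). On the brighter TIMP3 probe set MB60 read 92.4, 213 and 106 units and SAL60 41.9, 40 and 43.7 units. The dimmer one averaged 96.5 units in MB60, 26.9 in SAL60 and 18.1 in CA0. Its SAL60 and CA0 means lie under the filter intensity of 29.5. That filter used the mean of all 30 arrays, which the high methylene blue arrays raised, so the dimmer probe set gives no separate support. On the arrays of like 3'/5' ratio, with 2 arrays per group, the log2 differences were 1.52 for VGLL4, 1.20 for DZANK1, 1.03 for PICALM, 0.95 for GMFB, 0.73 for IMPA1, and 0.94 and 0.97 for the TIMP3 probe sets. None passed there, and the positive signs are no separate check, since these arrays helped pick the genes.

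The 10 largest differences downward were smaller. MOBP, a protein of the myelin sheath, read 789, 510 and 493 units in MB60 and 2433, 1775 and 1871 units in SAL60, with the groups apart. Its log2 difference was -1.75 ± 0.41 (SE, limma adjusted p = 0.0302). The gene's other 4 probe sets were between -0.55 and -0.30 and none passed. FZD5 and FZD4, receptors of Wnt ligands, were both lower. FZD5 read 165, 144 and 114 units in MB60 and 345, 398 and 290 units in SAL60 (log2 difference -1.20). FZD4 read 286, 235 and 219 units in MB60 and 386, 615 and 493 units in SAL60 (log2 difference -0.95, with -0.19 on its other probe set). Neither receptor's groups overlapped.

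AP5Z1, a subunit of the adaptor complex AP-5 of endosomes, read 365, 355 and 402 units in MB60 and 877, 1018 and 713 units in SAL60. Its log2 difference was -1.17 ± 0.22 (SE, limma adjusted p = 0.00948). The transcription factor MEIS2 averaged 61.2 units in MB60 and 150 in SAL60 (log2 difference -1.08, with -0.41 on its other probe set). IFRD1, a transcriptional coregulator, averaged 472 in MB60 and 865 in SAL60 (-0.92), while its other probe set gave 0.35 and did not pass. SPECC1 averaged 60.0 units in MB60 and 147 in SAL60 (-1.11), and C14H1orf198 averaged 235 in MB60 and 473 in SAL60 (-0.97, with -0.05 on its other probe set). POLR2B, a core subunit of RNA polymerase II, was lower by -0.97 on 1 probe set, while its other 3 gave 0.27, -0.02 and -0.18 and did not pass. EEF1A1, a translation elongation factor, was called on a dim probe set with 42.1 units in MB60 and 107 in SAL60, and its other probe sets gave -0.03 and -0.10. On the arrays of like 3'/5' ratio, with 2 arrays per group, the log2 differences were -1.75 for MOBP, -1.38 for SPECC1, -1.11 for C14H1orf198, -1.11 for FZD5, -1.02 for AP5Z1 and -0.98 for POLR2B. They were -0.94 for EEF1A1, -0.86 for MEIS2, -0.77 for FZD4 and -0.70 for IFRD1. None of the 10 passed there, and the negative signs are no separate check, since these arrays helped pick the genes.

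**Figure D3:**
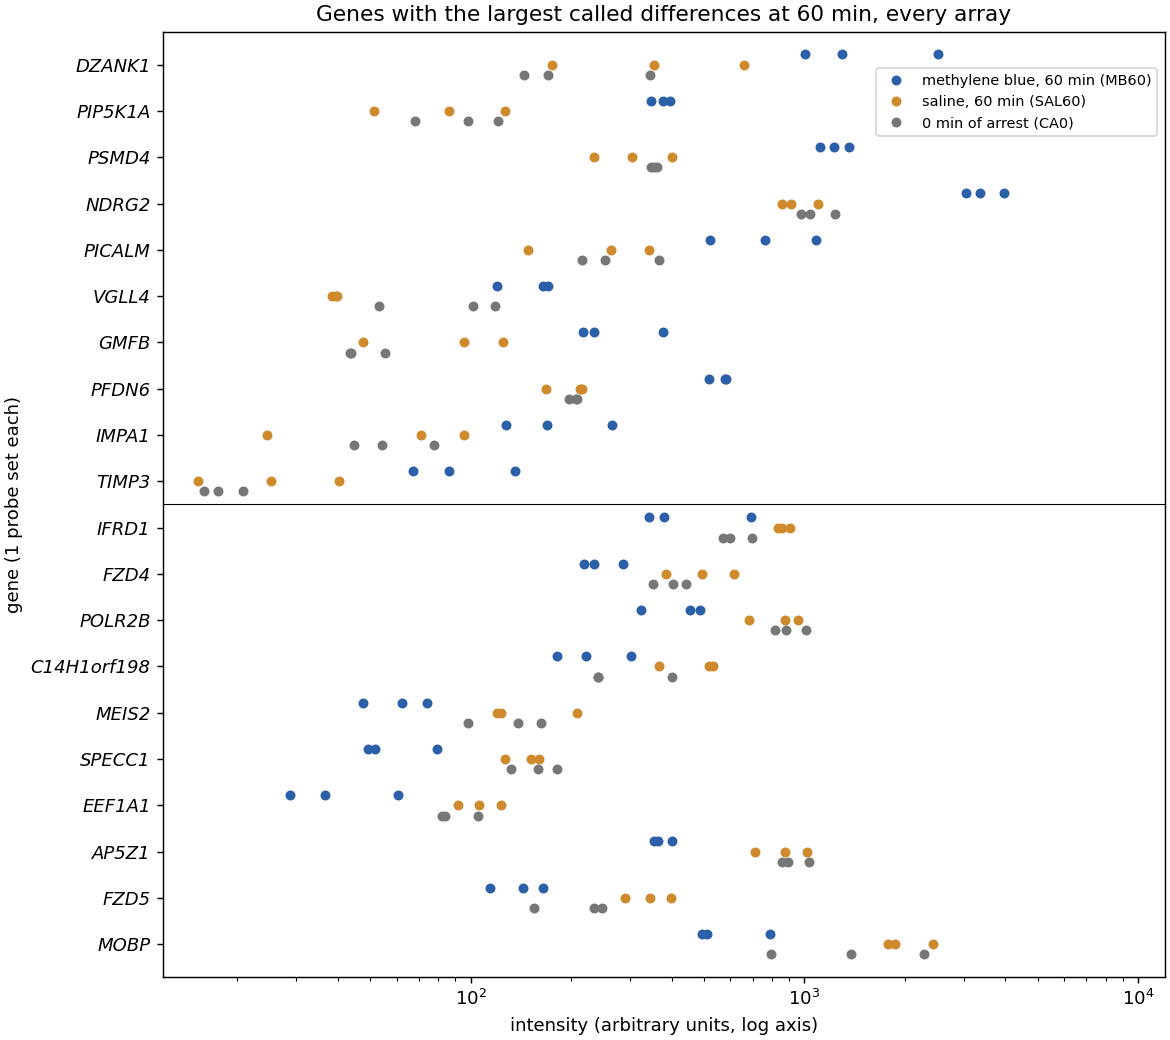
Intensity in arbitrary units (x axis, log scale) of the 10 genes with the largest called differences upward (above the line) and the 10 downward (below it), 1 probe set per gene. Each point is an array, blue for MB60, orange for SAL60 and grey for CA0. The MB60 and SAL60 points of a gene do not overlap, and the NDRG2 points lie between 3047 and 3969 units in MB60.

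Many called genes had further probe sets, which were not picked for passing as the called one was. Of the 104 called genes, 61 had several probe sets tested, and their 95 other probe sets had the same sign in 65 cases and the opposite sign in 30. Of these 95, 3 were called, 0 of them in the opposite direction. The remaining 43 called genes, among them NDRG2, PFDN6 and PSMD4, had 1 probe set tested, so no other probe set could be compared. STMN2, a neuronal tubulin-binding protein chosen after its values were seen, had a called probe set with a log2 difference of 0.90 and a brighter one with 0.05. The called higher probe sets were dimmer than the array at large, with a median of 143 units against 207 over all tested, while the called lower ones had a median of 398. At the 25th percentile of intensity, the arrays read 24.7 to 27.9 units in MB60 and 20.5 to 24.0 in SAL60, so the dim end of the MB60 arrays was brighter. Over the series this percentile lay between 24.7 and 31.8 on the 9 methylene blue arrays and between 18.3 and 24.8 on the other 21. At the 10th percentile the ranges were 6.5 to 8.87 and 4.07 to 6.1, without overlap. The part of this brighter dim end in the calls was not tested.

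Counts of calls in gene lists, on 1 chosen probe set per gene, are read against the 1.52% called over all probe sets. In lists of the sizes here that share comes to about 1 gene or none, so nothing is read from counts of 0 or 1. Among immediate early genes, the transcription factors that neurons switch on first when stimulated, 0 of 23 measured were called and the median log2 difference was 0.14. EGR4, a zinc finger factor of this family, averaged 469 units in MB60 and 299 in SAL60 (0.60), and PPP1R15A, a phosphatase subunit of the stress response, 294 in MB60 and 211 in SAL60 (0.46). FOS read 3663, 3206 and 4347 units in MB60 and 3523, 3499 and 3286 in SAL60, against a mean of 1035 in CA0. Its log2 difference of 0.11 had a 95% interval from -0.73 to 0.95. EGR1 read 1628, 2379 and 4661 units in MB60 and 1819, 1818 and 1691 in SAL60 (log2 difference 0.56, limma adjusted p = 0.547). ATF3, a stress transcription factor, averaged 583 units in MB60 and 486 in SAL60, with 32.5 in CA0 (log2 difference 0.28, interval -0.33 to 0.90).

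Heat shock proteins refold damaged proteins. Of 25 measured, 8 were called higher and 1 lower in MB60 against CA0, and 4 higher and 0 lower in SAL60 against CA0. Over all probe sets, 12.5% were called in MB60 against CA0 and 0.315% in SAL60 against CA0. The 8 and the 4 thus stand against unlike backgrounds and are not compared with each other. HSPA6 read 2639, 4035 and 3676 units in MB60 and 3579, 2664 and 3776 units in SAL60, with a mean of 116 in CA0. The log2 difference between the arms was 0.04, with a 95% interval from -0.36 to 0.44. HSP70.2 averaged 12188 units in MB60, 9515 in SAL60 and 2195 in CA0 (log2 difference 0.30, interval -0.43 to 1.03). Between the arms 0 of the 25 were called higher and 1 lower, DNAJB2, a co-chaperone of neurons, with 524, 574 and 508 units in MB60 and 928, 1321 and 811 in SAL60 (log2 difference -0.88, limma adjusted p = 0.0459). The DNAJB2 call was lost under 12 of the 19 other settings. HSPD1, the mitochondrial chaperonin, averaged 4273 units in MB60 and 3556 in SAL60 and did not pass (0.27, limma adjusted p = 0.173). The median of the list was 0.11.

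Of 12 measured prefoldin and TRiC genes PFDN6 was the single call, and the others ranged from -0.28 for PFDN1 to 0.18 for CCT6A. PFDN1, another prefoldin subunit, read 1036, 879 and 1024 units in MB60 and 1133, 1312 and 1128 in SAL60 (limma adjusted p = 0.275). Of 32 proteasome genes, PSMD4 was called higher and PSMD11, another subunit of the regulatory particle, was called lower by -0.41 ± 0.10 (SE, limma adjusted p = 0.0365), and the median was -0.04. Other, dimmer PSMD11 probe sets gave 0.42 and -0.03 and did not pass. The PSMD11 call was lost under 10 of the 19 other settings.

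In oxidative stress defence, 1 of 27 genes was called, with a list median of 0.07 and a lowest value of -1.42. GCLM, the modifier subunit of the enzyme that limits glutathione synthesis, read 72.8, 118 and 63.4 units in MB60 and 35.3, 32.4 and 41.7 in SAL60 (log2 difference 0.91 ± 0.22, limma adjusted p = 0.0365). All MB60 arrays were above all SAL60 arrays. The GCLM call was lost under 8 of the 18 other settings that tested it. HMOX1, heme oxygenase 1, read 184, 214 and 293 units in MB60 and 151, 113 and 110 in SAL60. Its difference of 0.79 ± 0.30 did not pass (limma adjusted p = 0.173). PRDX1, a peroxiredoxin that removes peroxides, read 820, 1107 and 568 units in MB60 and 1096, 1170 and 1250 in SAL60, with overlap (-0.54, limma adjusted p = 0.154).

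The nitric oxide and cGMP pathway, on which the dye acts, had 0 of 19 genes called and a median of 0.05, a share near the background of 1.52%. GUCY1B3, a subunit of soluble guanylate cyclase, read 1162, 1037 and 1385 units in MB60 and 925, 760 and 1017 in SAL60 (log2 difference 0.40, 95% interval -0.06 to 0.86). NOS2, the inducible nitric oxide synthase, averaged 55.7 units in MB60 and 37.3 in SAL60, with 13.7 in CA0 (log2 difference 0.44, limma adjusted p = 0.472). NOS3, the endothelial enzyme, averaged 151 units in MB60 and 126 in SAL60. MAOA, a monoamine oxidase, averaged 882 units in MB60 and 839 in SAL60 (interval -0.30 to 0.45). QDPR, which regenerates the synthase cofactor tetrahydrobiopterin, averaged 4032 units in MB60 and 5422 in SAL60 (-0.41, limma adjusted p = 0.421).

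The remaining lists each held 0 or 1 call. Of 59 nuclear-encoded respiratory chain genes, 1 was called, ATP5J of the ATP synthase, at 522 ± 38.4 units in MB60 and 723 ± 67.7 in SAL60 (SD, n = 3 each; log2 difference -0.46). The ATP5J call (limma adjusted p = 0.0489) was lost under 15 of the 19 other settings. SDHA, a subunit of succinate dehydrogenase, averaged 2816 units in MB60 and 2378 in SAL60 (0.25) and did not pass. Of 57 ribosomal protein genes, on 1 chosen probe set each, 1 was called, RPS9, by -0.54 ± 0.11 (SE, limma adjusted p = 0.013), and the median was -0.05. The RPS9 call was lost under 5 of the 19 other settings. RPS6 averaged 3859 units in MB60 and 4793 in SAL60 (-0.31) and did not pass. RPS28 was called higher on a probe set other than the chosen one (0.79, limma adjusted p = 0.0222), while its brightest gave -0.10 and its dimmest 0.39. No gene was called among 16 of the unfolded protein response (median -0.16), 16 of cytokines, adhesion and NF-kB (0.09), 23 of hypoxia and glycolysis (0.17), 10 of apoptosis (0.04), 7 of glutamate and GABA transmission (0.22) and 11 of water and ion transport (0.05). By limma these lists held 3, 1, 3, 2, 0 and 1 genes with an unadjusted p under 0.05. Of 22 genes of angiogenesis and matrix, TIMP3 was the single call. CXCL2 averaged 92.6 units in MB60 and 81.6 in SAL60, and VEGFA 1076 units in MB60 and 936 in SAL60.

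The list members with the smallest p that did not pass are given by their means. In the unfolded protein response, PDIA6, a disulfide isomerase, averaged 1752 units in MB60 and 2226 in SAL60 (log2 difference -0.34), and DDIT3, the transcription factor CHOP, 607 in MB60 and 467 in SAL60 (0.37). IL10, an anti-inflammatory cytokine, averaged 37.8 units in MB60 and 19.8 in SAL60 (0.62), and ICAM1, an adhesion molecule, 199 in MB60 and 265 in SAL60 (-0.39). Among hypoxia and glycolysis genes, BNIP3L, a receptor of mitophagy, averaged 2299 units in MB60 and 1718 in SAL60 (0.44), and ADM, the vasodilator adrenomedullin, 156 in MB60 and 94.6 in SAL60 (0.63). The groups of PDIA6, DDIT3, IL10 and ADM did not overlap, while those of ICAM1 and BNIP3L did. These genes were picked for the smallest p of their lists, which favours separated groups. The share of all probe sets with separated groups is not given, so nothing is read from separation here.

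In apoptosis, AIFM1, a mitochondrial flavoprotein, averaged 461 units in MB60 and 611 in SAL60 (log2 difference -0.38), and FADD, an adaptor of death receptors, 127 in MB60 and 199 in SAL60 (-0.59). ACE, angiotensin converting enzyme, averaged 64.6 units in MB60 and 42.5 in SAL60 (0.62). SLC1A3, a glial glutamate transporter, averaged 314 units in MB60 and 218 in SAL60 (0.45), and GLUL, glutamine synthetase, 6362 in MB60 and 8564 in SAL60 (-0.43). JAM3, a junction protein, averaged 611 units in MB60 and 998 in SAL60 (-0.69), and AQP1, a water channel that also marks choroid plexus, 359 in MB60 and 194 in SAL60 (1.05). None of these genes was called, and the groups overlapped for ACE and SLC1A3 but not for the others. Since they were picked in the same way, nothing is read from that separation either.

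**Figure D4:**
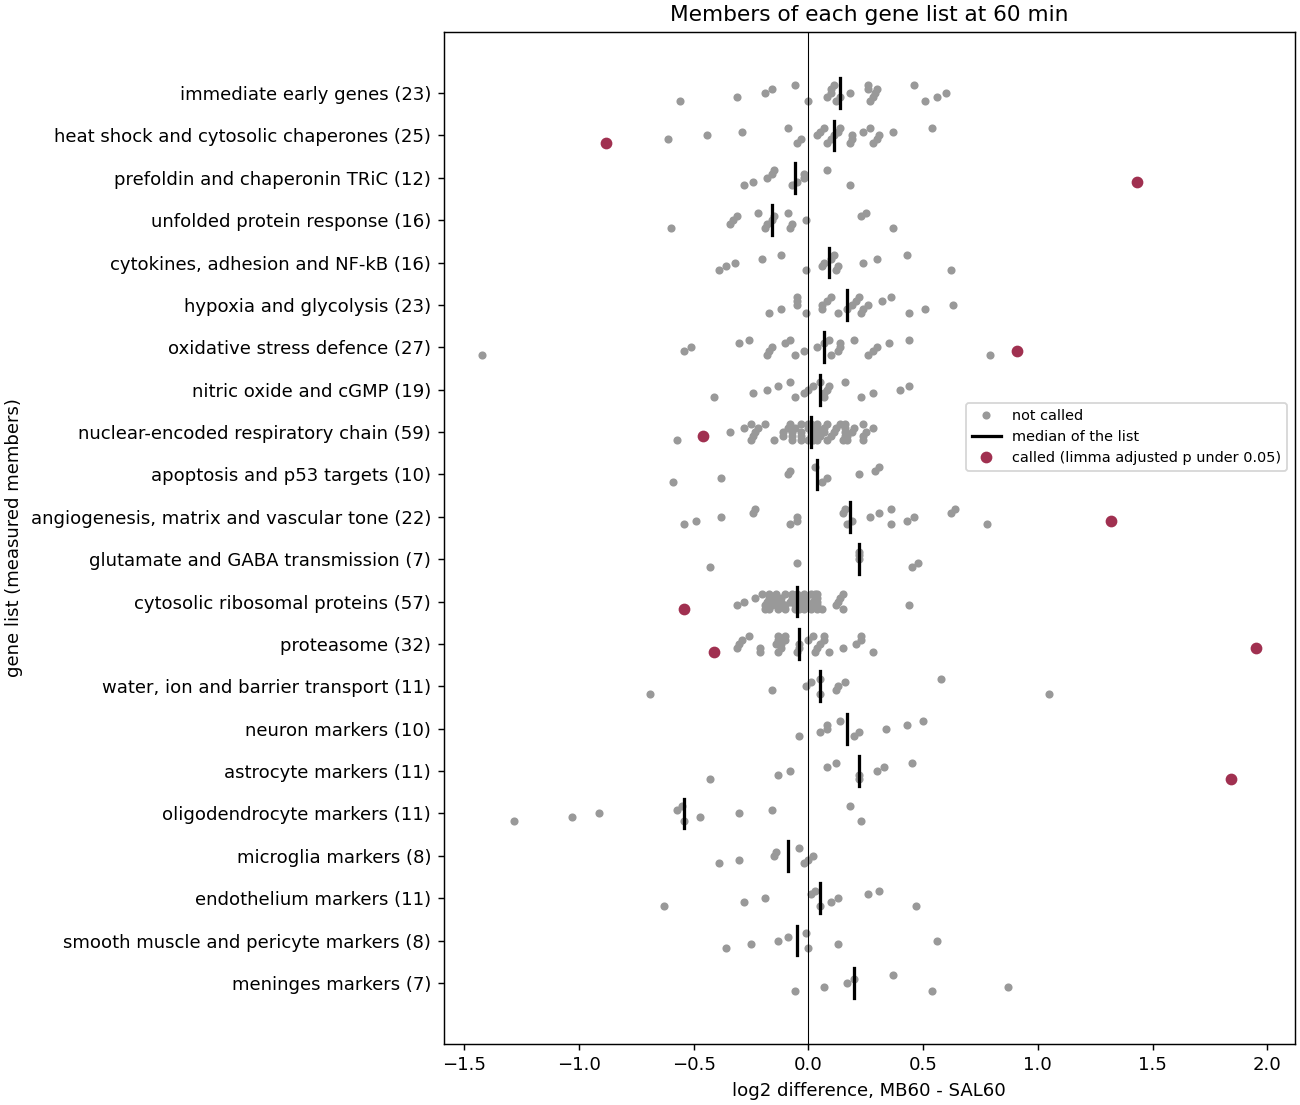
Log2 difference between MB60 and SAL60 (x axis) for each measured member of the gene lists with 5 or more measured members (y axis, with their number), 1 probe set per gene. Grey points were not called, red points passed with limma, and black bars are list medians. PSMD4, NDRG2, PFDN6 and TIMP3 are the red points beyond 1, and the oligodendrocyte median of -0.54 is the lowest.

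The labelled tissue was checked against markers of the cells of cortex. SNAP25, a protein of neuronal synapses, read 11284, 13324 and 19969 units in MB60 and 10658, 13170 and 10528 in SAL60. The 10 neuron markers measured summed to between 63725 and 88678 units in MB60 and between 59401 and 67559 in SAL60, and 0 were called in these probe sets (median 0.17). VSNL1, a neuronal calcium sensor, averaged 10534 units in MB60 and 7357 in SAL60 (0.50, limma adjusted p = 0.138). Of 11 astrocyte markers, NDRG2 was the single call. GFAP, the astrocyte filament protein, read 5189, 5168 and 8318 units in MB60 and 6268, 8622 and 5468 in SAL60, and SLC1A2, a glutamate transporter, 5075, 5079 and 7164 units in MB60 and 5858, 4415 and 4499 in SAL60. In both genes the groups overlapped.

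Of 11 oligodendrocyte markers 2 had a positive and 9 a negative difference, with a median of -0.54, against 0.01 over all probe sets, and 0 were called on the chosen probe sets. MOBP, one of the 11, was called on another of its probe sets, given above (-1.75). OLIG2, a transcription factor of this lineage, read 129, 186 and 205 units in MB60 and 336, 363 and 303 in SAL60 (log2 difference -0.91, limma adjusted p = 0.111). MAL, a membrane protein of myelin, read 179, 307 and 320 units in MB60 and 469, 571 and 615 in SAL60 (-1.03, limma adjusted p = 0.194). MBP, the abundant myelin basic protein, had 12654, 16400 and 25773 units in MB60 and 14112, 18780 and 13834 in SAL60, with overlap. The sum of the list ran from 29864 to 55916 units in MB60 and from 41747 to 52275 in SAL60. The median of the list was -0.59 on the arrays of like 3'/5' ratio, -0.46 with the poly-A signal as a covariate and -0.27 with the 3'/5' ratio as a covariate. Between the arms it was -0.36 at 30 min and -0.09 at 180 min. Against CA0 it was 0.18 in SAL60 and -0.29 in MB60, with 0 called in either. VCAN, the 1 measured marker of oligodendrocyte precursors, averaged 152 units in MB60 and 230 in SAL60 (-0.55) and did not pass. In tissue RNA, fewer cells of a type and less RNA per cell cannot be told apart.

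Blood, vessel and microglia markers gave no call. Medians were 0.05 over 11 endothelium markers, -0.05 over 8 of smooth muscle and pericytes and -0.09 over 8 of microglia. They were -0.92 over 3 red blood cell markers and -0.27 over 2 white blood cell markers. ENG averaged 103 units in MB60 and 68.0 in SAL60 (0.47) for endothelium, ACTA2 726 in MB60 and 910 in SAL60 (-0.36) for smooth muscle, TYROBP 145 in MB60 and 201 in SAL60 (-0.39) for microglia, and LCP1 69.1 in MB60 and 105 in SAL60 (-0.47) for white blood cells. AHSP, a haemoglobin chaperone of red cells, read 8.54, 3.23 and 15.2 units in MB60 and 67.5, 50.6 and 38.6 in SAL60 (log2 difference -1.46, limma adjusted p = 0.107), while HBB averaged within the same range in both groups, with 922, 939 and 932 units in MB60 and 1040, 693 and 911 in SAL60. CLDN5, which seals brain endothelium, averaged 510 units in MB60 and 479 in SAL60. IGF2, which marks the meninges, read 388, 362 and 408 units in MB60 and 288, 173 and 167 in SAL60. It did not pass (log2 difference 0.87, limma adjusted p = 0.0581).

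Animals were of both sexes, and the labels do not give the sex of each one. EIF1AY, a Y-linked translation factor, read 2.07, 439 and 524 units in MB60 and 590, 397 and 458 in SAL60, so 1 MB60 array stood apart in this gene. The balance of the sexes between the groups is not known, and its part in the differences was not tested.

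The difference at 60 min was then set beside the difference at the other times, which used other animals. The methylene blue arrays at those times shared the brighter dim end given above. Agreement between times therefore does not separate the arm from that array-wide difference. In MB30 against SAL30, taken during the infusion, 687 probe sets passed (4.09%), and in MB180 against SAL180, 319 passed (1.9%). All 122 probe sets higher at 60 min had a positive difference at 30 min and at 180 min, and 73 and 70 of them were called there. Of the 134 lower at 60 min, 131 were negative at 30 min and 127 at 180 min, with 36 and 24 called. The higher probe sets had a median of 1.10 at 60 min and 0.88 at both other times, and the lower ones a median of -0.77 at 60 min, -0.46 at 30 min and -0.42 at 180 min. Over all tested probe sets, 72.5% had the same sign at 30 min as at 60 min and 71.5% at 180 min. Called at all 3 times were 55 higher and 13 lower probe sets.

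A test of whether the difference at 60 min departed from the mean of the differences at 30 and 180 min called 0 of 16799 probe sets (0%) with limma, with a smallest adjusted p of 0.388. An unadjusted p under 0.05 was found for 480, where 840 are expected if no probe set differs. For NDRG2 the log2 difference was 1.26 at 30 min, then 1.84 at 60 min, then 1.51 at 180 min. For PFDN6 it was 1.48 at 30 min, then 1.43 at 60 min, then 1.23 at 180 min. Both were called at each time. MEIS2 stood at -0.02 (30 min), -1.08 (60 min) and -0.33 (180 min), and AHSP at -0.30 (30 min), -1.46 (60 min) and 0.74 (180 min), but neither departure passed.

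**Figure D5:**
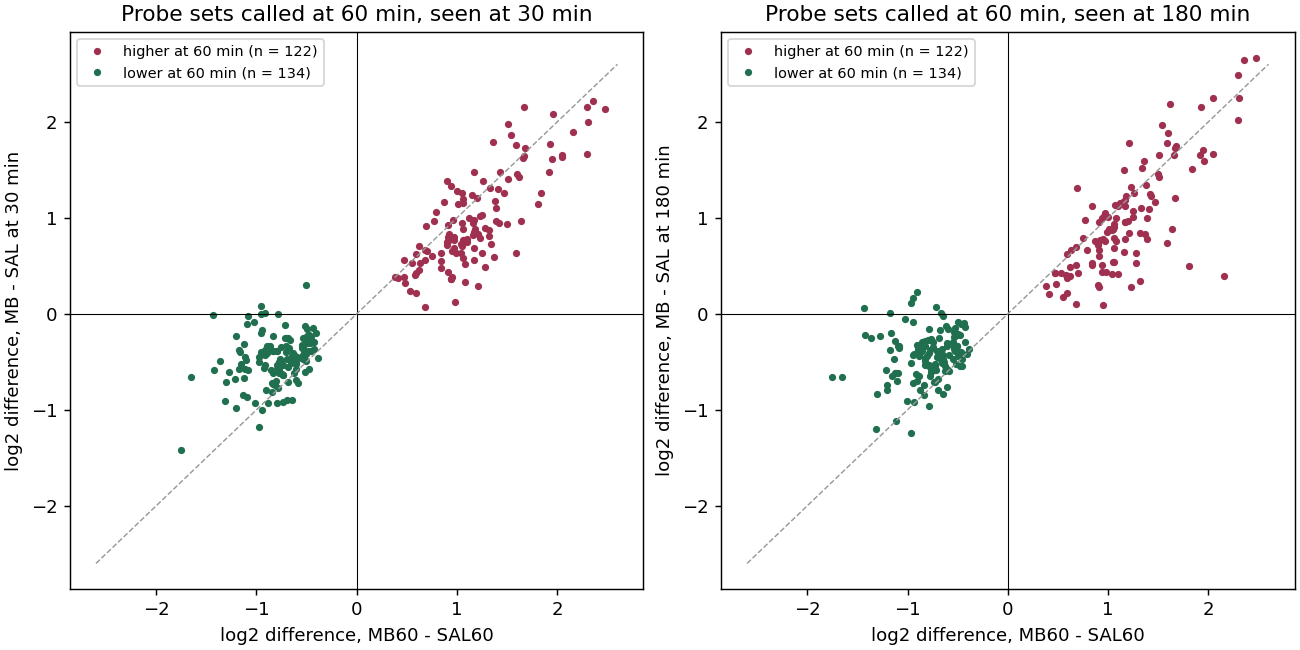
Log2 differences of the 256 probe sets called in MB60 against SAL60, with the 60 min difference on the x axis and the difference between the arms at 30 min (left) or 180 min (right) on the y axis. Red points were higher and green points lower at 60 min, and the dashed line marks equal differences. All 122 red points lie above 0 in both panels.

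Each group was also set against CA0, and since both comparisons share the CA0 arrays, their values are given side by side. MB60 against CA0 called 2106 probe sets (12.5%), 1184 higher and 922 lower, and SAL60 against CA0 called 53 (0.315%), 46 higher and 7 lower. HSPA6 differed from CA0 by 4.72 in MB60 and 4.68 in SAL60 on the log2 scale, and ATF3 by 3.63 in MB60 and 3.34 in SAL60. FOS differed by 1.97 in MB60 and 1.86 in SAL60. These 3 genes were called in both groups. HMOX1 differed from CA0 by 1.78 in MB60, which was called (limma adjusted p = 0.00061), and by 0.99 in SAL60, which was not (0.364); its difference between the arms, given above, did not pass. With the 3'/5' ratio as a covariate, the count was 469 for MB60 against CA0 and 53 for SAL60 against CA0. The log2 ratio averaged 1.02 ± 0.43 in MB60 and 1.56 ± 0.64 in SAL60 (SD, n = 3 each). The lowest CA0 array had a ratio of 1.70, so every MB60 array (0.56 to 1.40) lay below every CA0 array. SAL60 (1.06 to 2.28) spanned the CA0 values. At the 25th percentile of intensity, CA0 read 18.7 to 20.2 units, below both MB60 (24.7 to 27.9) and SAL60 (20.5 to 24). The part of this dim-end difference in the counts was not tested.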

How the data were processed

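Biotin-labelled cRNA from pig cerebral cortex was hybridized to Affymetrix porcine arrays, 1 per animal, in 10 groups of 3 biological replicates per the labels. The authors deposited linear intensity per probe set. The submitters' processing notes name GCOS, with no version or signal algorithm. The mean intensity after trimming 2% at each end was 300.05 to 300.06 on all 30 deposited arrays.

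The 124 AFFX control probe sets were kept apart from the other 23999. From the deposited intensities log2(intensity + 16) was computed, so fold changes of dim probe sets are understated, and probe sets with a mean below the 30th percentile (intensity 29.5) were left out. Symbols came from the platform annotation: 10069 probe sets had 1 symbol, 198 several and 13732 none. By gene ID, 9989 of the symbols were found in the reference table, and 0 had changed. limma 3.58.1 in R 4.3.3 fitted all 10 groups at once (20 residual degrees of freedom), two-sided, with a mean-variance trend and p-values adjusted (Benjamini-Hochberg) over the 16799 probe sets at 0.05. Single control measures were compared by exact permutation tests. The fit was tested on simulated data.

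Named were NDRG2, PFDN6, the 10 largest called differences each way, the 2 members of each gene list and 1 of each marker list with the smallest p, and a fixed set (FOS, EGR1, ATF3, HSPA6, HSP70.2, HMOX1, CXCL2, VEGFA, NOS2, NOS3, MAOA, MBP, GFAP, CLDN5 and AQP4, which was not measured); others were chosen after their values were seen. The genes and lists were chosen with earlier results of these data known. Alternatives tried were pseudocounts of 1 and 64, the 50th percentile as filter or none, median centring, quantile normalization, the compared groups alone, no trend, array weights, a replicate block, the 3'/5' ratio as a covariate, and each array left out. Added after seeing the data were the poly-A signal as a covariate, the arrays of like 3'/5' ratio, and other probe sets for the control measures.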

Additional observations from a re-analysis of the deposited data

How the results depend on the processing

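For MB60 against SAL60 the count of 256 was 63 when the compared groups alone were fitted, 60 with the 3'/5' ratio as a covariate, 797 with the poly-A signal as a covariate and 11 on the arrays of like 3'/5' ratio. It was 27 to 221 with 1 array left out, and 202 to 322 under the other settings. Median centring called 103 higher and 176 lower probe sets, against 122 and 134. With a replicate block it was 217; deviations of same-numbered arrays correlated at 0.05, -0.23 and -0.20, so the arrays share only a number. The departure of 60 min from the other times called 0 to 1 probe sets, the 1 without MB60 replicate 1. SAL60 against CA0 called 19 probe sets with the compared groups alone, 94 with array weights and 23 to 47 with 1 array left out, against 53; the 23 were found without CA0 replicate 3 and without SAL60 replicate 1, and 30 without SAL60 replicate 3. MB60 against CA0 called 1278 with the compared groups alone, 469 with the ratio as a covariate, 1003 on the arrays of like ratio and 901 to 1786 with 1 array left out, against 2106; median centring moved its median over all probe sets to -0.13. The difference in hybridization controls was -0.22 to 0.21 with 1 array left out, at -0.13 without SAL60 replicate 3 and -0.22 without MB60 replicate 3. Of 26 called probe sets of named genes, 4 kept their calls under all 19 settings, and none changed sign. The cause of these shifts was not tested.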

Other observations

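The following called genes lie outside the lists and the largest differences and were chosen after their values were seen. DYNLL2, a light chain of dynein and myosin V, read 4332, 5741 and 5986 units in MB60 and 2288, 2938 and 2404 in SAL60, without overlap (log2 difference 1.06, limma adjusted p = 0.00296). ATP6V1B2, a subunit of the proton pump of vesicles, read 2073, 2881 and 2214 units in MB60 and 1183, 972 and 1495 in SAL60 (0.97). GLRB, the beta subunit of the glycine receptor, read 199, 351 and 262 units in MB60 and 91.9, 72.3 and 153 in SAL60 (1.26). CTNNB1, beta-catenin, differed by 0.47 ± 0.09 (SE, limma adjusted p = 0.0111), with 2512, 2670 and 2566 units in MB60 and 1840, 1931 and 1800 in SAL60. SLC37A4, a glucose 6-phosphate transporter, was called on both of its probe sets (1.36 and 0.97). Other probe sets gave 0.65 for DYNLL2, 0.28 for ATP6V1B2, and -0.09, 0.26, -0.29 and 0.59 for CTNNB1, and none passed. On the arrays of like 3'/5' ratio, the log2 differences were 1.11 for DYNLL2, 0.68 for ATP6V1B2, 0.86 for GLRB and 0.48 for CTNNB1. They were 1.42 and 0.79 for the SLC37A4 probe sets, and none of these passed there.

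Among the lower genes, SET, a histone chaperone and inhibitor of protein phosphatase 2A, read 2317, 2063 and 2714 units in MB60 and 3821, 4229 and 3677 in SAL60 (-0.73, limma adjusted p = 0.00215). NFIA, a transcription factor of glial development, read 726, 879 and 904 units in MB60 and 1340, 1542 and 1332 in SAL60 (-0.74). HOMER2, a scaffold of the postsynaptic density, read 1163, 1146 and 1088 units in MB60 and 1578, 1955 and 1783 in SAL60 (-0.63). All MB60 arrays were below all SAL60 arrays for these 3 genes. Other probe sets gave 0.19 for SET, -0.29 and 0.38 for NFIA, and -0.06 and -0.21 for HOMER2, and none passed. On the arrays of like 3'/5' ratio, with 2 arrays per group, the log2 differences were -0.58 for SET, -0.71 for NFIA and -0.57 for HOMER2, and none passed.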
